A study of Mus musculus with 7 samples.

Results

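The 8 genes described here encode innate sensors and their nearest partners: the Toll-like receptors Tlr1, Tlr2, Tlr4, Tlr5 and Tlr6, the TLR4 co-receptor Ly96, the cytosolic sensor Nod1 and the signalling protein Irak2. They were taken by gene symbol from a table of 20343 genes, and all 8 were found in it. RNA sequencing gave their transcript levels in heart muscle from the apex of 7 mice of the NSG-DR1 strain, labelled NSG-DRB1*0101. The control group held 4 mice without treatment. The transferred group held 3 mice that were given human CD4+ T cells and studied 6 weeks later. All 7 hearts share the NSG background, an immunodeficient strain without mature lymphocytes of its own that keeps macrophages and neutrophils, together with a human HLA-DR1 transgene. The age of the mice and the cell donors are not given in the sources used here. Nothing in the labels says that hearts of a group came from separate litters or experiments, so p-values measure the spread between these hearts.

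Toll-like receptors are membrane proteins that bind microbial products and molecules released by damaged tissue, and pass the signal on through adaptor proteins and IRAK kinases to NF-kB. TLR2 pairs with TLR1 or TLR6 to recognise lipoproteins, TLR4 recognises lipopolysaccharide together with MD2, the product of Ly96, and TLR5 recognises flagellin. NOD1 detects fragments of bacterial cell wall inside the cell. In the heart these receptors are known from macrophages, endothelial cells and cardiomyocytes.

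Of the 8 genes, Tlr1, Tlr2 and Tlr4 had all 3 transferred hearts above all 4 control hearts, with fitted ratios of 2.46, 1.46 and 1.31. The other 5 overlapped between the groups, and none of the 8 had all transferred hearts below the controls. Of all 7667 genes that passed the expression filter, the transferred hearts lay wholly above the controls in 5.99% and wholly below them in 5.22%. None of the 8 passed the edgeR quasi-likelihood test after Benjamini-Hochberg adjustment over all tested genes, a test that called 18 genes, 0.235% of those tested. At an unadjusted p under 0.05 there were 3 of the 8, again Tlr1, Tlr2 and Tlr4, against 12.4% of all tested genes in either direction and 7.17% in the higher one. DESeq2 called the same 3 genes among 250 called in all, 3.26% of those tested, and limma-voom called 0 of the 8, with 3 at an unadjusted p under 0.05. Tlr1, Tlr2 and Tlr4 were under an unadjusted p of 0.05 in each of the 18 alternative analyses, which include leaving out each heart in turn.

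The columns of the table summed to between 16402194 and 25190580 counts over the analysed part of the genome, and 3 counts correspond to between 0.115 and 0.189 counts-per-million (CPM, scaled by the trimmed mean of M values, TMM). All 8 genes passed the expression filter. Summed levels of the listed cardiomyocyte markers lay between 92900 and 108784 CPM in control hearts and between 86231 and 112859 CPM in transferred hearts, so the labelled tissue carried its markers. Of 12 listed macrophage markers in the table, 12 had a positive fold change, against 49.7% of all tested genes, and none was at 0. All 12 were higher at an unadjusted p under 0.05, against 7.17%, and 2 passed the edgeR adjusted test (C1qb and Mrc1, both at an adjusted p of 0.0384), against 0.235%. Leaving out any 1 heart other than transferred heart 3 ended both calls, with adjusted p from 0.0606 to 0.157. Their summed level was 524 to 770 CPM in control hearts and 912 to 1341 CPM in transferred hearts. The 8 neutrophil markers summed to 14.7 to 41.0 CPM in control hearts, and to 25.7, 329.7 and 57.4 CPM in transferred hearts 1, 2 and 3, with none at 0. The 7 endothelial markers summed to 2539 to 2762 CPM in control and 2522 to 3069 CPM in transferred hearts, with none at 0 and a median log2 fold change of 0.0056. Of these, Vwf and Emcn were higher and Tie1 lower at an unadjusted p under 0.05, and Tie1 stood at 221 to 251 CPM in control and at 184 to 202 CPM in transferred hearts (edgeR adjusted p = 0.185). The 8 T cell markers in the table gave no usable level of T cells, since Cd28 alone held 23.1 to 31.4 CPM in control and 21.9 to 29.3 CPM in transferred hearts. Only Cd28, Cd247 and Cd4 passed the expression filter, Cd2, Lat, Lck and Zap70 were at or under 0.800 CPM in every heart, and Trbc2 was at 0 in all. Cd247 was lower at an unadjusted p of 0.0153 (edgeR adjusted p = 0.278), at 2.21 to 4.84 CPM in control and 1.28 to 2.48 CPM in transferred hearts. Cd2 lay wholly higher, with 0, 1, 1 and 0 counts in control and 4, 3 and 5 in transferred hearts. The counted genes are those of the mouse build, so these markers are no measure of the transferred human cells. Whether reads of human cells were counted on mouse genes, the 8 genes included, was not tested. In tissue of mixed cells, more cells of a type and more RNA per cell cannot be told apart.

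**Figure D1:**
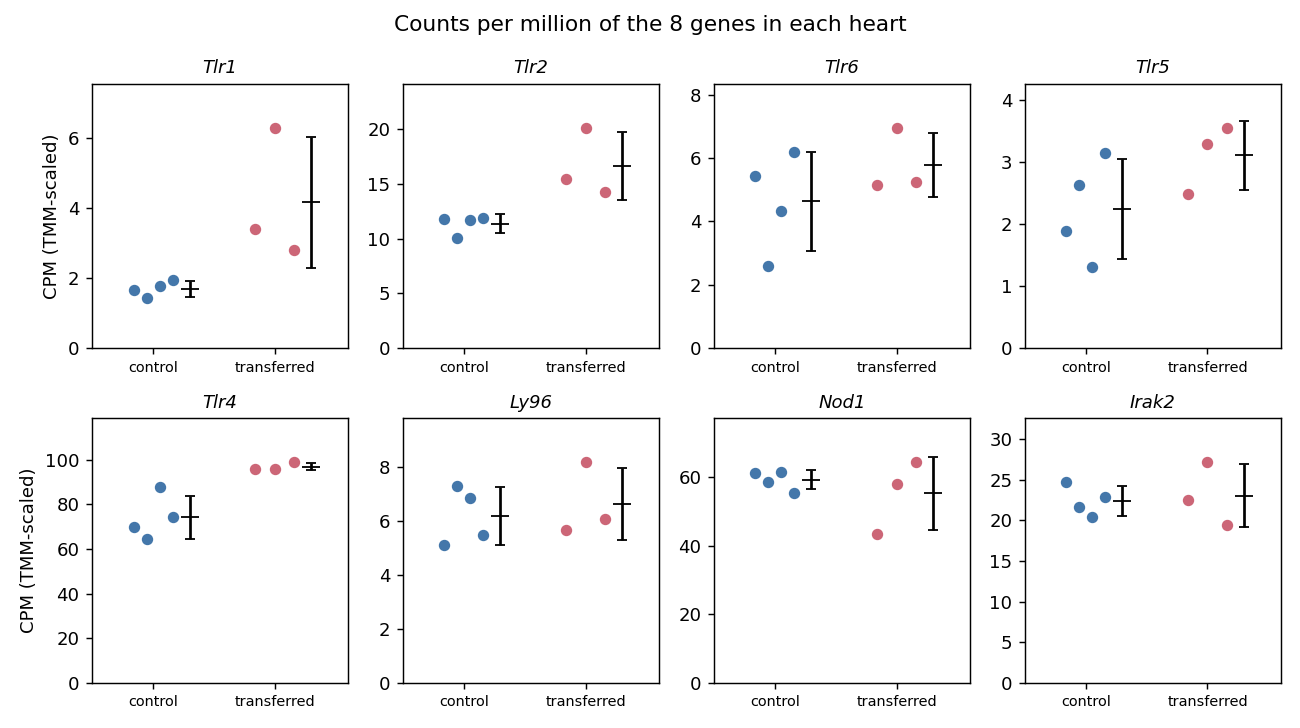
TMM-scaled CPM (vertical axis, from 0) of each gene in the 4 control hearts (blue points) and the 3 transferred hearts (red points), with hearts in replicate order and the mean ± SD in black. The groups are apart for Tlr1, Tlr2 and Tlr4 and overlap for Tlr6, Tlr5, Ly96, Nod1 and Irak2.

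Tlr1 (chr5:64924680-64933600, minus strand, GRCm38) encodes the chain that joins TLR2 in the sensing of triacylated lipoproteins. It stood at 1.65, 1.42, 1.77 and 1.96 CPM in control hearts 1 to 4 and at 3.39, 6.30 and 2.82 CPM in transferred hearts 1 to 3. Transferred heart 2 was the highest of the 7, and the lowest transferred heart was above the highest control heart. The group means were 1.70 ± 0.224 CPM (SD, n = 4) and 4.17 ± 1.87 CPM (SD, n = 3), so the transferred hearts were spread more widely. The log2 fold change was 1.30 with a standard error of 0.31 (edgeR adjusted p = 0.124). The adjusted p was 0.0134 with DESeq2 and 0.0448 by edgeR without transferred heart 3. Without transferred heart 2 the log2 fold change was 0.87, so the highest heart carried part of its size.

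The Tlr1 values rest on few reads. Control heart 4 held 31 counts, whose exact 95% Poisson interval reached from 1.33 to 2.78 CPM, and transferred heart 3 held 57 counts, with an interval from 2.13 to 3.65 CPM. These nearest hearts of the 2 groups overlap within counting error, whereas the interval of transferred heart 2, from 5.28 to 7.46 CPM on 134 counts, lay above that of every control heart. Such intervals and floors describe counting error alone, because PCR copies of a molecule were not told apart.

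Tlr1 and Tlr6 are neighbours on chromosome 5 and related copies of each other, which bears on how reads are told apart. Over 2300 aligned positions of their longest open reading frames, 81.7% of bases were identical (GENCODE M21 transcripts, GRCm38). Of 2951 windows of 75 bases in the longest Tlr1 transcript, 340 (11.5%) occur unchanged in a Tlr6 transcript, and none occurs in Tlr2, Tlr4 or Tlr5. The longest stretch that both reading frames share is shown because a read pair that lies wholly inside it cannot be assigned to either gene. It is 229 bases long and runs from position 1468 to 1696 of the Tlr1 reading frame and from 1507 to 1735 of that of Tlr6.
Tlr1 and Tlr6 shared stretch: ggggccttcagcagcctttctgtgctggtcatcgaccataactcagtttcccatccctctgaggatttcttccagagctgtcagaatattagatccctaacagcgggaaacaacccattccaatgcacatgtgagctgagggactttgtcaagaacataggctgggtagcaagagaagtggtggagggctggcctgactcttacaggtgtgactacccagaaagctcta
The deposited values of Tlr1 and Tlr6 were whole in all 7 hearts. How reads of such stretches were counted is not given in the sources used here, so the level of either gene may leave them out, and the split between the 2 genes is uncertain to that extent.

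Tlr6 (chr5:64953092-64970942, minus strand) encodes the other partner of TLR2, for diacylated lipoproteins. Its control values were 5.45, 2.58, 4.34 and 6.18 CPM and its transferred values 5.17, 6.96 and 5.24 CPM. Control heart 2 was the lowest and transferred heart 2 the highest, and the remaining hearts of both groups were interleaved. The fitted ratio was 1.26 with a 95% confidence interval from 0.811 to 1.95 (edgeR adjusted p = 0.695), which includes no difference and also a near doubling. The log2 fold change of 0.33 was 0.13 without control heart 2 and 0.18 without transferred heart 2. Its record overlaps those of 2 other genes, Fam114a1 and Mir574. Whether counting used the strand is not given in the sources used here.

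Tlr2 (chr3:83836272-83841824, minus strand), the shared chain of both pairs, stood at 11.8, 10.1, 11.7 and 11.9 CPM in control hearts and at 15.4, 20.1 and 14.3 CPM in transferred hearts. The control hearts lay close together at 11.4 ± 0.865 CPM (SD, n = 4), and the transferred hearts, at 16.6 ± 3.10 CPM (SD, n = 3), were all above them. The log2 fold change was 0.55 with a standard error of 0.15 (edgeR adjusted p = 0.165, DESeq2 adjusted p = 0.0361). Transferred heart 2 was again the highest, as for Tlr1 and Tlr6.

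Promoter sequence was at hand for 6 of the 8 genes (RefSeq, GRCm38.p6), and Tlr4 and Ly96 had no entry. The 250 bases before each annotated start were searched on both strands for the letters GAGGAA, the core recognised by the myeloid factor PU.1, and for the NF-kB motif. The stretches of Tlr1 and Tlr2 are shown because these genes were apart between the groups and each holds a match, printed in capitals. The first is GRCm38.p6 chr5:64933559-64933808 and the second chr3:83841609-83841858, both on the minus strand and written 5′ to 3′.
Tlr1: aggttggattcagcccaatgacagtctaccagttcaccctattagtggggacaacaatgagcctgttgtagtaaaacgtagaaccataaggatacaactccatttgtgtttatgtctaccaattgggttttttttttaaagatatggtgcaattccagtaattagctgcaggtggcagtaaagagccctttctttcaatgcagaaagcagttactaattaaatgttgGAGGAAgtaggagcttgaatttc
Tlr2: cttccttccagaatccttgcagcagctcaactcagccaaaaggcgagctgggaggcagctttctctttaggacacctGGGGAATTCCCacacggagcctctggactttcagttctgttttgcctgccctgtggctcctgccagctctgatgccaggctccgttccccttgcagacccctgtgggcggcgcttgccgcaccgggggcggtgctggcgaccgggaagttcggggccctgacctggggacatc
In Tlr1 the letters GAGGAA begin 23 bases before the start, and 23.3% of all 32851 promoter entries hold them in a window of this length. In Tlr2 the NF-kB motif matches at 173 bases before the start, as 3 overlapping matches on the 2 strands of 1 site, and 3.9% of all entries hold it. The deposited gene record of Tlr1 reaches to position 64933600 and that of Tlr2 to 83841824, so 42 and 216 of the 250 bases lie inside the gene records. Both matches, at 64933581 and 83841781, are among these bases, before the start of the annotated entry and not upstream of the gene record. No entry of Tlr5, Tlr6, Nod1 or Irak2, and not the second entry of Tlr1, holds either motif in its window. The windows of Tlr6, the second of Tlr1 and that of Nod1 at chr6:54971662-54971911 lie wholly inside the gene records. The Tlr6 record, on the minus strand, reaches to 64970942, so the bases upstream of it were not searched. A match is a run of letters and does not show that a factor binds there.

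The balance of the TLR2 partners was compared within each heart, as ratios of counts per kilobase of exon, which do not depend on library scaling. The 4 ratios were chosen after the levels of the genes had been seen, so they are given as a description, and no p is read from them. Tlr1 stood at 0.133, 0.133, 0.143 and 0.155 of Tlr2 in control hearts and at 0.207, 0.295 and 0.186 of it in transferred hearts, so the groups did not overlap. The mean log2 ratio was higher by 0.68 in transferred hearts. Tlr6 stood at 0.506, 0.280, 0.406 and 0.567 of Tlr2 in control hearts and at 0.366, 0.378 and 0.401 of it in transferred hearts. All 3 transferred values lay inside the control range, with a log2 difference of -0.16. That difference was -0.074 without control heart 1, -0.36 without control heart 2 and -0.019 without control heart 4.
The ratio of Tlr1 to Tlr6 was 0.262, 0.475, 0.351 and 0.273 in control hearts and 0.567, 0.782 and 0.464 in transferred hearts. Control heart 2, with its low Tlr6, lay above transferred heart 3, and the log2 difference was 0.84. The reads that the 2 genes may share, described above, enter this ratio.

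**Figure D2:**
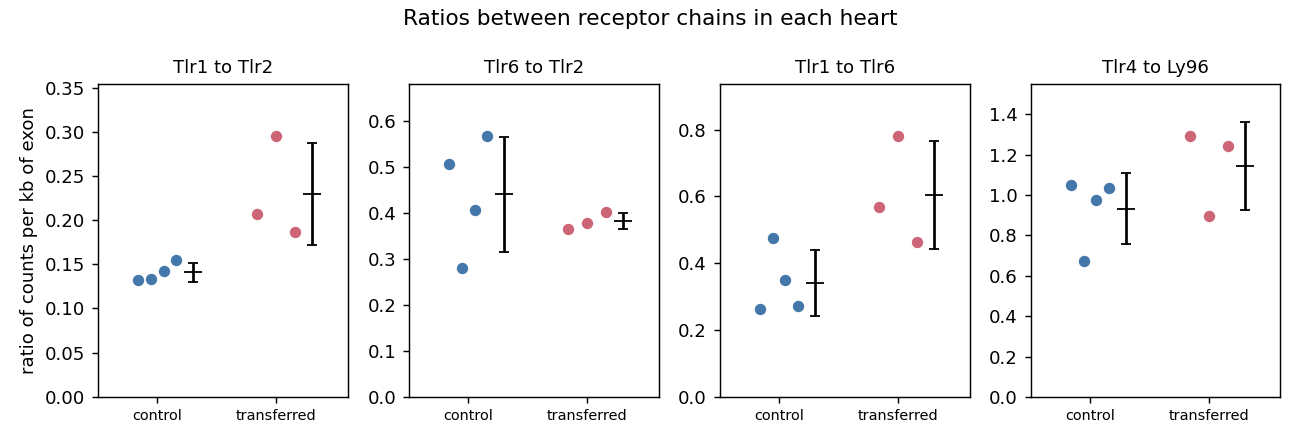
Ratio of counts per kilobase of exon (vertical axis, from 0) between the genes named above each panel. Each panel holds the 4 control (blue) and 3 transferred (red) hearts, with the mean ± SD in black. The groups are apart for Tlr1 to Tlr2, where control hearts reach 0.155 and transferred hearts start at 0.186, and overlap for the other 3 ratios.

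Tlr4 (chr4:66827551-66846581, plus strand), the lipopolysaccharide receptor, had the most counts of the 8 genes. It stood at 70.1, 64.6, 87.6 and 74.3 CPM in control hearts and at 96.0, 95.8 and 98.8 CPM in transferred hearts. The transferred hearts lay within a narrow band above control heart 3, the highest control. The means were 74.1 ± 9.81 CPM (SD, n = 4) and 96.9 ± 1.66 CPM (SD, n = 3). The log2 fold change was 0.39 with a standard error of 0.10 (edgeR adjusted p = 0.160, DESeq2 adjusted p = 0.0339). Transferred heart 2, which was highest for Tlr1 and Tlr2, did not stand out for Tlr4.

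Ly96 (chr1:16688456-16709605, plus strand), whose product MD2 holds the lipid part of lipopolysaccharide on TLR4, stood at 5.11, 7.32, 6.87 and 5.49 CPM in control hearts. It stood at 5.67, 8.18 and 6.08 CPM in transferred hearts, which were interleaved with the controls apart from the highest, transferred heart 2. The fitted ratio was 1.07 with a 95% confidence interval from 0.783 to 1.46 (edgeR adjusted p = 0.888). The ratio of Tlr4 to Ly96 per kilobase was 1.05, 0.675, 0.974 and 1.03 in control and 1.29, 0.894 and 1.24 in transferred hearts, with overlap. The log2 difference of 0.30 was 0.15 without control heart 2 and 0.46 without transferred heart 2.

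Tlr5 (chr1:182954752-182976044, plus strand), the flagellin receptor, was scarce, with 34 to 72 counts a heart. Its values were 1.90, 2.63, 1.31 and 3.15 CPM in control and 2.48, 3.29 and 3.56 CPM in transferred hearts. Transferred heart 1 lay below control hearts 2 and 4. The fitted ratio was 1.40 with a 95% confidence interval from 0.858 to 2.28 (edgeR adjusted p = 0.590), which includes no difference. The counting intervals of control heart 3, from 0.904 to 1.82 CPM, and control heart 4, from 2.34 to 4.16 CPM, did not overlap, so control hearts differed by more than counting error. The log2 fold change of 0.48 was 0.29 without control heart 3.

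Nod1 (chr6:54923942-54972674, minus strand), the cytosolic sensor that signals through RIPK2, stood at 61.2, 58.7, 61.6 and 55.6 CPM in control hearts and at 43.6, 58.2 and 64.4 CPM in transferred hearts. The transferred hearts included both the lowest and the highest value, transferred hearts 1 and 3. The fitted ratio was 0.934 with a 95% confidence interval from 0.771 to 1.13 (edgeR adjusted p = 0.810). Without transferred heart 1 the log2 fold change turned from -0.099 to 0.048.

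Irak2 (chr6:113638467-113695026, plus strand), a kinase-like member of the complex that forms on MyD88, stood at 24.7, 21.6, 20.4 and 22.8 CPM in control hearts. It stood at 22.5, 27.1 and 19.5 CPM in transferred hearts, again on both sides of the controls. The fitted ratio was 1.03 with a 95% confidence interval from 0.841 to 1.26 (edgeR adjusted p = 0.930). Its log2 fold change of 0.042 turned to -0.092 without transferred heart 2.

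**Figure D3:**
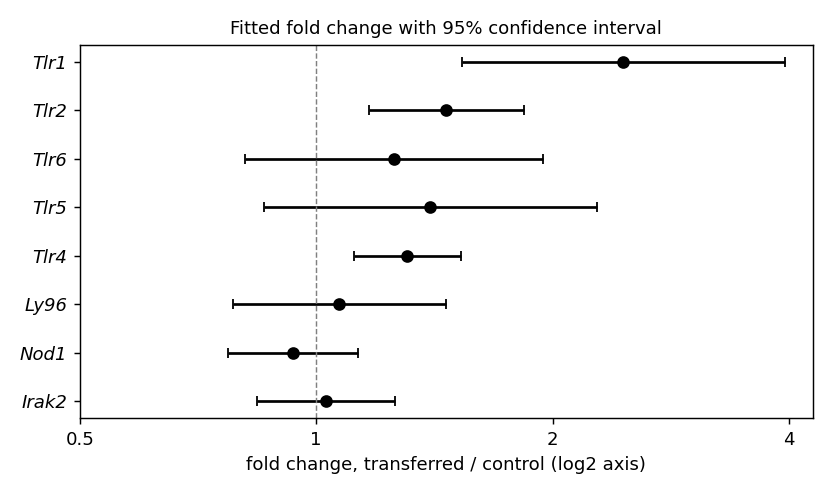
Fitted ratio of transferred to control hearts for each gene (points, log2 axis) with its 95% confidence interval from the edgeR quasi-likelihood fit over 4 control and 3 transferred hearts. The intervals of Tlr1, Tlr2 and Tlr4 lie above 1, and those of Tlr6, Tlr5, Ly96, Nod1 and Irak2 include 1.

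Between genes, levels were compared as CPM per kilobase of exon. The order in control hearts was Nod1 at 13.2 ± 0.622, Ly96 at 10.3 ± 1.76, Tlr4 at 9.40 ± 1.24, Irak2 at 6.57 ± 0.541, Tlr2 at 3.38 ± 0.258, Tlr6 at 1.51 ± 0.510, Tlr1 at 0.477 ± 0.0629 and Tlr5 at 0.385 ± 0.139 CPM per kilobase (SD, n = 4). Ly96 and Tlr4 were interleaved over the control hearts, as were Tlr1 and Tlr5, while Nod1, Irak2, Tlr2 and Tlr6 each stood apart from their neighbours. In transferred hearts Nod1, at 12.4 ± 2.39, Tlr4, at 12.3 ± 0.211, and Ly96, at 11.02 ± 2.24 CPM per kilobase (SD, n = 3), did not differ beyond their spread. Tlr1, at 1.17 ± 0.525, ranged from 0.791 to 1.77 CPM per kilobase there and no longer overlapped Tlr5, which ranged from 0.426 to 0.610.

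The labels identify control heart 1 and transferred heart 1 by a code that begins with letters and the other 5 hearts by numbers, and what this means is not given. Between the 2 letter-coded hearts the log2 CPM of Tlr1 differed by 0.997, that of Tlr2 by 0.39 and that of Tlr4 by 0.45, transferred minus control, with 1 heart a group and no test. Among the other 5 hearts these differences were 1.27, 0.60 and 0.38, so they had the same sign in both forms. The differences of Nod1 were -0.49 and 0.062, those of Irak2 -0.13 and 0.090, and those of Tlr6 -0.075 and 0.54, with opposite signs in the 2 forms.

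Profiles over the 7 hearts were compared by the root mean square difference of log2 CPM, each gene centred on its own mean, among 7003 other genes. Nearest to Tlr1 were the adhesion molecule Vcam1 at 0.15, the endothelial gene Vwf at 0.15 and Gm10693 at 0.16, against an SD of Tlr1 itself of 0.73. Nearest to Tlr2 were Tmem176b at 0.050, the haematopoietic phosphatase Ptpn6 at 0.072 and Eps8 at 0.079, against an SD of 0.33. Nearest to Tlr4 were B3galnt1 at 0.077, the NF-kB subunit Relb at 0.086 and Notch2 at 0.092, against an SD of 0.25. The profiles come from the same 7 libraries, and the distances are a description without a test.

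The rest of the pathway was followed in 127 listed genes, of which 54 were in the analysed part of the table and 43 passed the expression filter. None of the 43 passed the edgeR adjusted test, against 0.235% of all tested genes. At an unadjusted p under 0.05 there were 17, all higher in transferred hearts, against 12.4% of all tested genes in either direction and 7.17% in the higher one. The 8 genes and the lists were chosen with earlier results of these data known. Their shares beside those of all tested genes are therefore a description and not a test. Without transferred heart 2 there were 9 of the 43, against 706 of 7795 tested genes (9.06%) in that fit and 954 with all hearts. By list, the median log2 fold change was 1.81 for genes induced by this signalling, 0.32 for endogenous ligands, 0.16 for transcription factors, 0.11 for negative regulators, 0.059 for adaptors and kinases and 0.047 for accessory proteins. It was 0.36 for the 8 genes themselves and -0.0020 over all tested genes. Among other sensors only Nlrp10 was tested, at -0.12. The 3 others in the table, Tlr12, Nlrp6 and Nlrp12, were under the filter, with 0, 3 and 4 counts over the control and 6, 14 and 42 over the transferred hearts. With all genes of at least 1 count fitted, the median of the 4 was 3.08, or 1.98 with Tlr12 set at the bound that 3 counts over the control group give. Tlr12 enters that fit through the transferred hearts alone, so its sign was fixed by its entry and nothing is read from this median. Leaving out 1 heart moved the lower medians and changed their order. Transcription factors ranged from 0.055 without transferred heart 3 to 0.27 without transferred heart 2, and adaptors and kinases from 0.016 without control heart 2 to 0.21 without transferred heart 1. Negative regulators ranged from 0.042 without control heart 4 to 0.19 without transferred heart 1, and accessory proteins from 0.021 without transferred heart 1 to 0.099 without transferred heart 3. The median of endogenous ligands ranged from 0.21 without control heart 2 to 0.46 without control heart 4. DESeq2 called 9 of the 43, against 3.26% of all tested genes, and limma-voom called 0, with 13 at an unadjusted p under 0.05.

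Ligands and ligand carriers came first in the pathway. Of 7 tested endogenous ligands, 4 had an unadjusted p under 0.05, all higher in transferred hearts, against 7.17% of all tested genes. There were 2 without control heart 2 or transferred heart 2, and 1 with limma-voom. The alarmins S100a8 and S100a9, ligands of TLR4 abundant in neutrophils, had control ranges of 1.38 to 2.04 and 2.46 to 5.38 CPM. In transferred hearts 1, 2 and 3 S100a8 stood at 2.13, 72.3 and 9.63 CPM and S100a9 at 4.31, 137.8 and 16.9 CPM. Transferred heart 2, highest for both, was also the heart with the most neutrophil marker RNA, a list that holds both genes. Without that heart the log2 fold changes of S100a8 and S100a9 were 1.82 and 1.42 in place of 4.07 and 3.73. Hmgb1, a nuclear protein released from damaged cells, was at 334 ± 14.0 CPM (SD, n = 4) and 385 ± 16.9 CPM (SD, n = 3), without overlap (edgeR adjusted p = 0.283). The fibrinogen genes Fga, Fgb and Fgg were at 0 in all hearts. Of the 4 tested accessory proteins, Lbp, which carries lipopolysaccharide to its receptor, stood at a log2 fold change of 0.66, with overlap (edgeR adjusted p = 0.334), and Tril and Cd36 had -0.20 and 0.12. Without transferred heart 2 these were 0.44 for Lbp, -0.12 for Tril and 0.081 for Cd36, and Tril was also at -0.12 without control heart 1. The unadjusted p of Lbp, 0.0298 over all hearts, was 0.135 without transferred heart 2 and from 0.0679 to 0.0747 without control heart 1, 2 or 3 or transferred heart 3.

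Signalling proteins downstream of the receptors had 1 gene in each of 2 lists under an unadjusted p of 0.05. Of 7 tested adaptors and kinases, the 1 with an unadjusted p under 0.05 was Ikbke, a kinase that activates interferon regulatory factors. It stood at 0.775 to 1.15 CPM in control and 1.37 to 2.17 CPM in transferred hearts, without overlap, on 15 to 44 counts a heart (edgeR adjusted p = 0.229). Ripk2, the kinase through which NOD1 signals, had a log2 fold change of 0.22 and Card9 of 0.43, both with overlap. Of 8 tested negative regulators, Tnip3 had 0.35 (edgeR adjusted p = 0.395), Tnip2 0.21 and Zc3h12a 0.21. The unadjusted p of Tnip3 was 0.0467, and it was over the threshold under upper-quartile scaling (0.0531), column totals (0.0552), the identifier covariate (0.0565), with no filter (0.0603) and without control heart 2, 3 or 4 or transferred heart 2 (0.0645 to 0.207). Without transferred heart 2 the log2 fold change of Tnip3 was 0.22. That of Tnip2 was 0.13 without control heart 4 or transferred heart 3 and 0.31 without control heart 3 or transferred heart 1. That of Zc3h12a was 0.13 without control heart 4, 0.095 without transferred heart 3 and 0.36 without transferred heart 1. Among other sensors, Nlrp10 was the 1 tested gene, at 121 ± 2.42 CPM (SD, n = 4) and 112 ± 8.65 CPM (SD, n = 3). All 3 transferred hearts were below the 4 control hearts, as in 5.22% of tested genes (edgeR adjusted p = 0.563), and its log2 fold change of -0.12 was -0.059 without transferred heart 2.

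Of 7 tested transcription factors, 3 were higher at an unadjusted p under 0.05, against 7.17% of all tested genes. All 3 had every transferred heart above the controls, as in 5.99% of tested genes, and the number at that p was 2 without transferred heart 2. Irf5, which acts downstream of MyD88 in myeloid cells, was at 5.99 to 6.95 CPM in control hearts and at 9.83, 12.5 and 8.35 CPM in transferred hearts (edgeR adjusted p = 0.178, DESeq2 adjusted p = 0.0483). Relb was at 31.7 ± 2.97 CPM (SD, n = 4) and 39.6 ± 3.34 CPM (SD, n = 3). Irf7, itself an interferon-induced gene, was at 22.6 to 25.9 CPM in control hearts and at 931, 119 and 27.3 CPM in transferred hearts 1 to 3. Its log2 fold change of 3.89 was 1.597 without transferred heart 1. Its order over the transferred hearts, with heart 1 highest, was not that of Tlr1 and Tlr2, which were highest in heart 2.

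All 9 tested induced genes had a positive fold change, against 3807 of 7667 tested genes (49.7%), and 7 were higher at an unadjusted p under 0.05, against 550 (7.17%). Without transferred heart 2, 8 of the 9 had a positive fold change, against 50.7% of all genes tested in that fit, 4 had an unadjusted p under 0.05, against 9.06%, and the median log2 fold change was 0.87 in place of 1.81. Vcam1, an adhesion molecule of activated endothelium, was at 24.2 to 30.4 CPM in control hearts and at 45.2, 76.7 and 41.5 CPM in transferred hearts (edgeR adjusted p = 0.0764). Sele, the endothelial selectin, was at 1.02 to 2.19 CPM and at 2.68, 18.2 and 5.83 CPM. The chemokine Cxcl1 was at 0.694 to 1.15 CPM in control hearts and at 1.06, 11.9 and 5.04 CPM in transferred hearts, where transferred heart 1 lay inside the control range. Transferred heart 2 was the highest for all 3 genes, as for Tlr1 and Tlr2, and it was also highest in summed macrophage markers, at 1341 CPM, and neutrophil markers. The part of these cell types in the levels of the 8 genes was not tested.

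**Figure D4:**
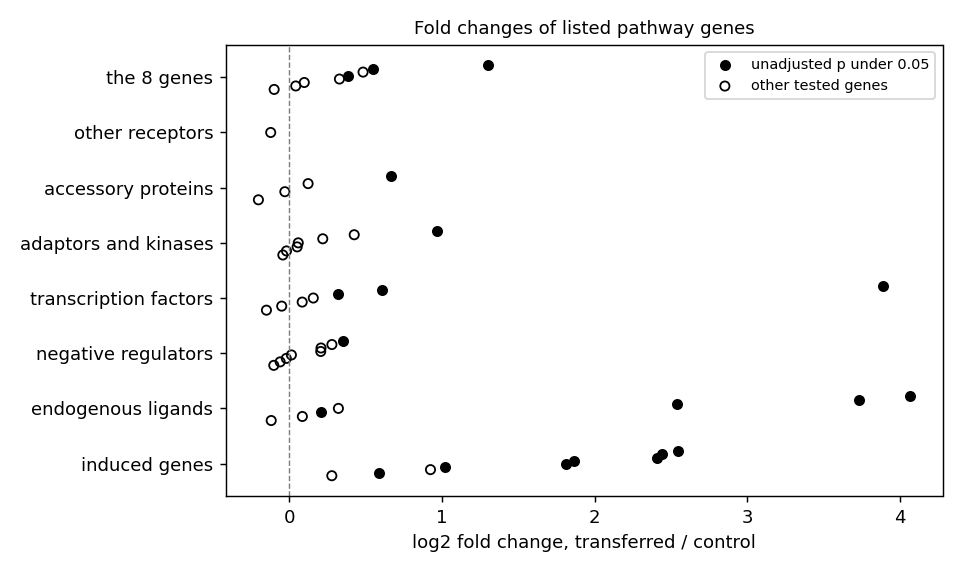
Log2 fold change of transferred against control hearts (horizontal axis) for each tested gene of the 8 genes and of 7 pathway lists (rows), with filled points for an unadjusted edgeR p under 0.05 and open points for the others. All filled points lie right of 0, and the induced genes have the highest median, 1.81.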

How the data were processed

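Per the submitters' processing notes, the tools were bcl2fastq 2.20.0.422, cutadapt 2.5, STAR 2.7.2b, featureCounts 1.6.4 and DESeq2 1.22.2 and the build GRCm38.p6. The series design gives paired-end reads of 75 nt, about 55 M per sample. The authors deposited estimated counts per gene, not normalized, of which 4.63% had a fractional part. Among the 8 genes, fractions occurred in 1 heart for Ly96 and 1 for Irak2. Of the table, 1 unfinished row was left out, and the 20343 rows used hold chromosomes 1 to 7 and 406 genes of chromosome 8. Other genes are not analysed here, and column totals are not library depths.

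Values were rounded, filtered with filterByExpr and scaled by TMM. They were tested with the edgeR 4.0.16 quasi-likelihood test (robust, R 4.3.3, Benjamini-Hochberg, threshold 0.05), which was tried on simulated data. Among 200 simulated changed genes, 71% of the 2-fold and 89% of the 3-fold ones were recovered, and 6.98% of called genes were false. Smaller changes, such as the fitted ratios of Tlr2 and Tlr4, were not simulated. Standard errors came from the F statistic. Centred profiles used log2 CPM with a prior count of 2 that was computed here from the deposited counts. The 9 same-group pairs differed by 18.2 to 81.5 (chi-square per degree of freedom), so none looked like a repeat. Alternatives used DESeq2 1.42.0, limma 3.58.1 (voom), other scalings, filters and samples. The members and lists were chosen with earlier results of these data known. Genes named beside the 8 were the 3 with the smallest p in each list and, for a member, the 3 nearest profiles among genes with a mean of at least 1 CPM. Nearest profiles of Tlr5, Tlr6, Ly96, Nod1 and Irak2 are left out. The cell type markers named, Fam114a1, Mir574 and the 11 pathway genes under the expression filter, the fibrinogen genes among them, are named outside that rule. The ratios were chosen after seeing the data and are given as a description.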

Additional observations from a re-analysis of the deposited data

Results flagged for a closer look

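Each control group of 4 hearts was checked for a heart far from the other 3, over 31 values, of which 1.55 would be marked by chance. Tlr2 was at 10.1 CPM in control heart 2, against 11.7 to 11.9 CPM in the other control hearts. Irf5 was at 5.99 CPM in control heart 4, against 6.84 to 6.95 CPM. Cxcl1 was at 0.694 CPM in control heart 4, against 1.08 to 1.15 CPM.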

How the results depend on the processing

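Against 18 called genes, column totals gave 35, all genes with at least 1 count 81 and DESeq2 250. Limma-voom, the identifier form as a covariate and the hearts with numbers alone gave 0 each, with 907, 973 and 1054 genes at an unadjusted p under 0.05. The fits that each left out 1 heart gave 0 to 140 genes. It was 0 without control heart 1, 2 or 4 or transferred heart 2, 1 without control heart 3, 27 without transferred heart 1 and 140 without transferred heart 3. Of the 8 genes, 0 were called in the main analysis, 3 with DESeq2, and 0 to 1 without 1 heart. Of the pathway genes these numbers were 0, 9 and 0 to 2. Leaving out transferred heart 1 gave 2 and leaving out transferred heart 3 gave 1. Leaving out 1 heart gave log2 fold changes from -0.080 (without transferred heart 2) to 0.20 for Ly96, from -0.22 to 0.048 (without transferred heart 1) for Nod1 and from -0.092 (without transferred heart 2) to 0.15 for Irak2, which was also just under 0 without control heart 3. In the hearts with numbers alone Nod1 was at 0.069. The cause was not tested. Tlr1, Tlr2 and Tlr4 kept their direction in all 18 alternatives, with log2 fold changes from 0.87 to 1.52, 0.39 to 0.65 and 0.32 to 0.48 and adjusted p from 0.0134 to 0.369, 0.0361 to 0.479 and 0.0339 to 0.380. The 4 ratios kept their sign when 1 heart was left out, with log2 differences from 0.48 to 0.82 for Tlr1 to Tlr2, -0.36 to -0.019 for Tlr6 to Tlr2, 0.63 to 1.01 for Tlr1 to Tlr6 and 0.15 to 0.46 for Tlr4 to Ly96. Without transferred heart 2 the log2 fold change of Cxcl1 was 1.58 and that of Sele 1.34. The labels name no pairing of control with transferred hearts, so no paired analysis was made. Tlr1 rests on 31 to 134 counts a heart and Tlr5 on 34 to 72.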

Other observations

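Of the 54 pathway genes in the table, 11 were under the expression filter. Nlrp12, a sensor of myeloid cells, had 2, 1, 1 and 0 counts in control hearts and 6, 34 and 2 in transferred hearts. Cxcl5, a neutrophil chemokine, had 1, 1, 4 and 3 counts in control hearts and 3, 60 and 8 in transferred hearts. Tlr12 had 0 counts in all 4 control hearts and 1, 5 and 0 in transferred hearts. Nlrp6 had 3 counts over the 4 control hearts and 14 over the 3 transferred hearts, Cxcl2 5 and 18, Il6 14 and 23, Il1a 11 and 11, and Cxcl3 0 and 2. Fga, Fgb and Fgg had 0 in all hearts. The groups overlapped or shared a value in each of these genes.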
